A study of Mus musculus with 5 samples.

Results

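The genes described here are 36 mouse genes of the endoplasmic reticulum (ER), taken from the 54838 genes that each deposited file lists. They were chosen by name for their known roles: 4 ER stress sensors and the transcription factor gene Xbp1, 12 chaperones and cofactors, 6 genes of disulphide bond formation, 11 genes of ER-associated degradation (ERAD) and 2 subunits of the translocon. The ER folds proteins that enter the secretory pathway, and the translocon is the channel through which they enter. When unfolded proteins build up, the sensors IRE1, PERK and ATF6 signal to the nucleus, and this unfolded protein response raises the genes of folding and degradation. ERAD recognises proteins that stay misfolded, moves them back to the cytosol and hands them to the proteasome.

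Total RNA was sequenced from N2a, an established line of mouse neuroblastoma. The cells had received either a control siRNA (siCtrl), sequenced as 2 libraries, or one that targets Ewsr1 (siEwsr1), sequenced as 3. Ewsr1 encodes an RNA-binding protein of the FET family. Both groups shared the rest of the treatment: 50000 cells, lipid transfection in 2 pulses at a stated concentration of 100 µM, and collection 24 hours after the last pulse. No untransfected cells were analysed here, and the siRNA sequences were not given in the sources used here. Whether the libraries of a group stem from separate cultures is not stated, so each p-value rests on a spread between libraries that may be technical.

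The libraries held 15045774 to 21339459 counted reads, as recovered from the deposited values. The unit of level is RPKM, which divides a gene's reads by its exonic length and by the library's counted reads; a lost decimal point had to be restored first. Ewsr1 (chromosome 11, 5069689 to 5099266, GRCm38) stood at 71.7 and 72.3 RPKM in siCtrl and at 35.7, 36.3 and 37.6 RPKM in siEwsr1. Its log2 fold change was -0.96 (SE 0.08; limma adjusted p = 8.01e-04). On the first principal component over all tested genes (45.4% of variance) siEwsr1 replicates 1, 2 and 3 scored 16.3, 33.8 and 0.1 against -21.3 and -28.9 for the controls, which replicate 3 thus approached most. The neuroblastoma genes Hand2, Dbh, Chga and Chgb were present, Nefl and Nefm were at or near 0, and Th stood at 0.611 to 1.11 RPKM. In bulk RNA, fewer cells of a kind and less RNA per cell cannot be told apart.

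Xbp1, the transcription factor gene downstream of IRE1, Herpud1, an ERAD membrane protein gene, and Sdf2l1, a cofactor of the ER chaperone BiP, fell after transfection with siEwsr1, by 33.3%, 33.2% and 28.9% in mean RPKM. Edem1, a lectin-like protein gene that sends glycoproteins to ERAD, rose by 26.7%. The abundant chaperone genes Hspa5, Hsp90b1, Canx and Calr differed by less than 7% in mean RPKM and were not called. Of the 36 genes, 35 had enough reads to be tested, and 3 were called lower and 1 higher at an adjusted p under 0.05 (limma, Benjamini-Hochberg over all genes), where over all 14943 tested genes 2.82% were called lower and 2.44% higher. Before adjustment, 13 of the 35 were lower and 2 higher at a p under 0.05, against 11.4% and 10.7% of all tested genes. The RPKM values of the groups did not overlap in 22 of the 35, 19 of them lower and 3 higher in siEwsr1, against 21.3% lower and 18.6% higher over all tested genes. The shares over all tested genes were not matched for level. By mean RPKM the 35 ranged from percentile 26.7 (Ero1lb) to 99.5 (Canx) of all tested genes, most of them well above the middle. For a single gene, the smallest p that exact permutation of these 5 libraries allows is 0.1.

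The log2 fold change was below 0 in 24 of the 35 tested genes and above 0 in 11, against 51.7% below 0 over all tested genes, and its median was -0.17 against -0.01. For 12 of the 35, Xbp1 and Sdf2l1 among them, the decimal position was read above the lowest one that gave whole reads. This also held for Ewsr1 and, of the called genes of the wider lists below, for Atf4, Trib3, Fkbp9 and Srp72. In a separate fit of only genes read at the lowest position, the median over the other 23 was -0.020, with 12 below 0 and 11 above. The roles differed in their medians, which are descriptions and were not tested against each other. The 5 sensor and Xbp1 values were all negative, with a median of -0.21. For the 10 tested ERAD genes the median was -0.23, with 8 negative and 2 positive. Over the 18 folding genes, that is chaperones and oxidative folding together, the median was 0.00, with 9 negative and 9 positive; the near-zero values of Calr and Pdia4 changed sign under other scalings. The 2 translocon genes had a median of -0.13.

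**Figure D1:**
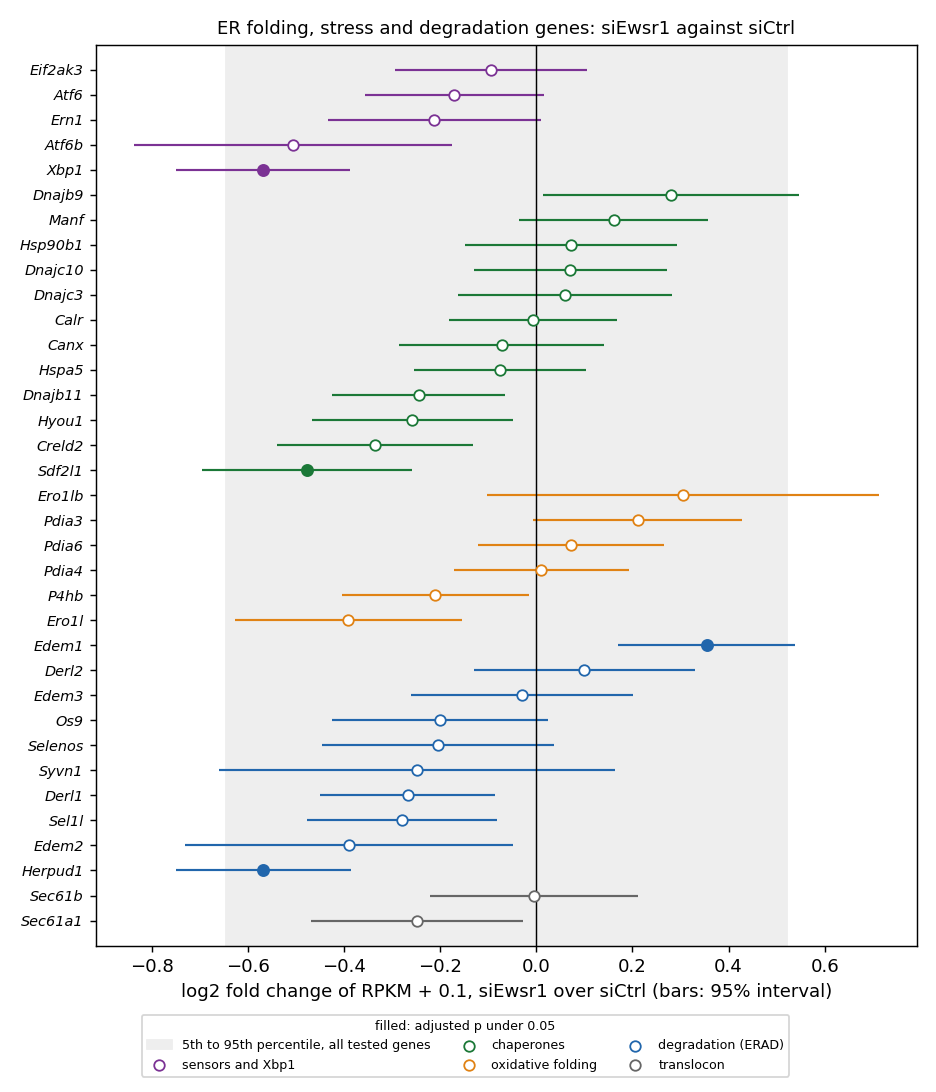
Log2 fold change of RPKM + 0.1 in siEwsr1 (3 libraries) over siCtrl (2 libraries) for the 35 tested genes, grouped by role; bars are 95% intervals from limma, filled points have an adjusted p under 0.05, and the grey band spans the 5th to the 95th percentile of all 14943 tested genes (-0.65 to 0.52). Xbp1, Sdf2l1 and Herpud1 are filled on the left and Edem1 on the right, and the points of all 35 genes lie inside the band.

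Several of these genes carry the ER stress response element (ERSE), CCAAT and CCACG held 9 bases of any kind apart, where the factor NF-Y and ATF6 or XBP1 are known to bind. A shorter form, ERSE-II, has ATTGG and CCACG 1 base apart. Promoter windows from RefSeq (GRCm38.p6), from 250 bases before to 50 bases after a gene's start, were held for 31 of the 36 genes. They were searched on both strands, overlapping matches included, and a gene with several starts counted once. The ERSE was found in 10 of the 31 (32.3%), against 37 of 27025 genes with a window (0.137%). The 10 were Calr, Canx, Creld2, Derl3, Dnajc3, Ero1lb, Hsp90b1, Hspa5, Pdia6 and Syvn1. The ERSE-II was found in Dnajb11 and Herpud1, against 12 of all genes (0.0444%), and neither match overlapped an ERSE match. The sites below are shown because they stand before the RefSeq starts of the abundant chaperone genes that were not called, of Creld2, and of Herpud1, which was called lower. Of the 2 matches of Hsp90b1 the farther one is shown. Each is 30 bases, 5′ to 3′ on the gene's own strand, with the matched letters in capitals.
Hspa5 (chr2:34772020-34772049, plus strand): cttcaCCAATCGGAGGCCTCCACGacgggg
Hsp90b1 (chr10:86705632-86705661, minus strand): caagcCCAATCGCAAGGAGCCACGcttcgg
Canx (chr11:50325794-50325823, minus strand): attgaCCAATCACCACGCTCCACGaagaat
Calr (chr8:84847069-84847098, minus strand, match on the other strand): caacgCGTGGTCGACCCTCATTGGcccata
Creld2 (chr15:88819515-88819544, plus strand, match on the other strand): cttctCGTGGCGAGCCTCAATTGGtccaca
Herpud1 ERSE-II (chr8:94386368-94386397, plus strand): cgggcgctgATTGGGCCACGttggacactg

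The Hspa5 match ran from base -65 to -47 and the Herpud1 ERSE-II match from base -52 to -42, counted from the RefSeq start. Gene intervals in the text are from GENCODE M21. That of Hspa5 (34771970 to 34777547) begins before its RefSeq start and includes the site. Herpud1 was also the 1 gene of the 31 with the C/EBP-ATF composite letters TGATGNAA, which 4.51% of all genes with a window hold, on the other strand from base -112 to -105.
Herpud1 C/EBP-ATF (chr8:94386306-94386335, plus strand): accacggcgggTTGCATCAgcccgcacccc

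The core letters TGACGTGG of the XBP1-bound UPRE were found in 0 of the 31, against 0.714% of all genes with a window. The 11 tested genes with an ERSE or ERSE-II match had a median log2 fold change of -0.07 (range -0.57 to 0.31), with 7 below 0 and 1 called lower. The 19 tested genes with a window but no such match had a median of -0.20 (range -0.57 to 0.35), with 13 below 0, 2 called lower and 1 higher. A match describes these letters only, and these medians were not tested against each other.

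In the group of sensors and Xbp1, Xbp1 (chromosome 11, 5520659 to 5525893, plus strand) changed most. IRE1 splices its message to give the active factor, and the gene-level values here do not separate the spliced from the unspliced form. Xbp1 stood at 75.7 and 75.0 RPKM in siCtrl and at 49.7, 49.1 and 51.9 RPKM in siEwsr1 replicates 1, 2 and 3. All 3 siEwsr1 libraries lay close together and far below both controls. The mean went from 75.3 ± 0.433 (SD, n = 2) to 50.2 ± 1.44 (SD, n = 3) RPKM, a log2 fold change of -0.57 (SE 0.08; limma adjusted p = 0.0051).

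Atf6b encodes a close relative of ATF6. Atf6b (chromosome 17, 34647146 to 34655074) stood at 18.1 and 19.3 RPKM in siCtrl and at 11.96, 11.1 and 16.6 RPKM in siEwsr1. Replicate 3 lay between the other siEwsr1 libraries and the controls, and the groups did not overlap. Its log2 fold change of -0.51 (SE 0.15) did not pass the test (adjusted p = 0.0800, limma). Without siEwsr1 replicate 3 it was -0.67 and passed (adjusted p = 6.8e-05, limma, range over 16 alternatives 2.14e-06 to 0.525). In that setting 20 of the 35 tested members were called.

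The other sensor genes differed less. Ern1, which encodes IRE1 (chromosome 11, 106394650 to 106487852), stood at 6.04 and 5.91 RPKM in siCtrl and at 4.87, 4.89 and 5.55 RPKM in siEwsr1, a log2 fold change of -0.21 (SE 0.10; limma adjusted p = 0.244). Its groups did not overlap, and replicate 3 was again the siEwsr1 library nearest to the controls. Without it the gene passed the test (adjusted p = 0.0356, limma, largest over 16 alternatives 0.662), as 1 of 20 called members of the 35 tested. Atf6 (chromosome 1, 170704674 to 170867771) stood at 14.0 RPKM in both siCtrl libraries and at 12.5, 12.1 and 12.3 RPKM in siEwsr1, a log2 fold change of -0.17 (SE 0.08; limma adjusted p = 0.265). Each siEwsr1 library was below both controls by a similar amount. Eif2ak3, which encodes PERK (chromosome 6, 70844515 to 70905245), stood at 10.7 and 11.6 RPKM in siCtrl and at 10.3, 10.2 and 10.4 RPKM in siEwsr1, a log2 fold change of -0.09 (SE 0.09; limma adjusted p = 0.583). The groups did not overlap, but their nearest libraries were closer to each other than the controls were, and the 95% interval of the log2 difference ran from -0.29 to 0.11.

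**Figure D2:**
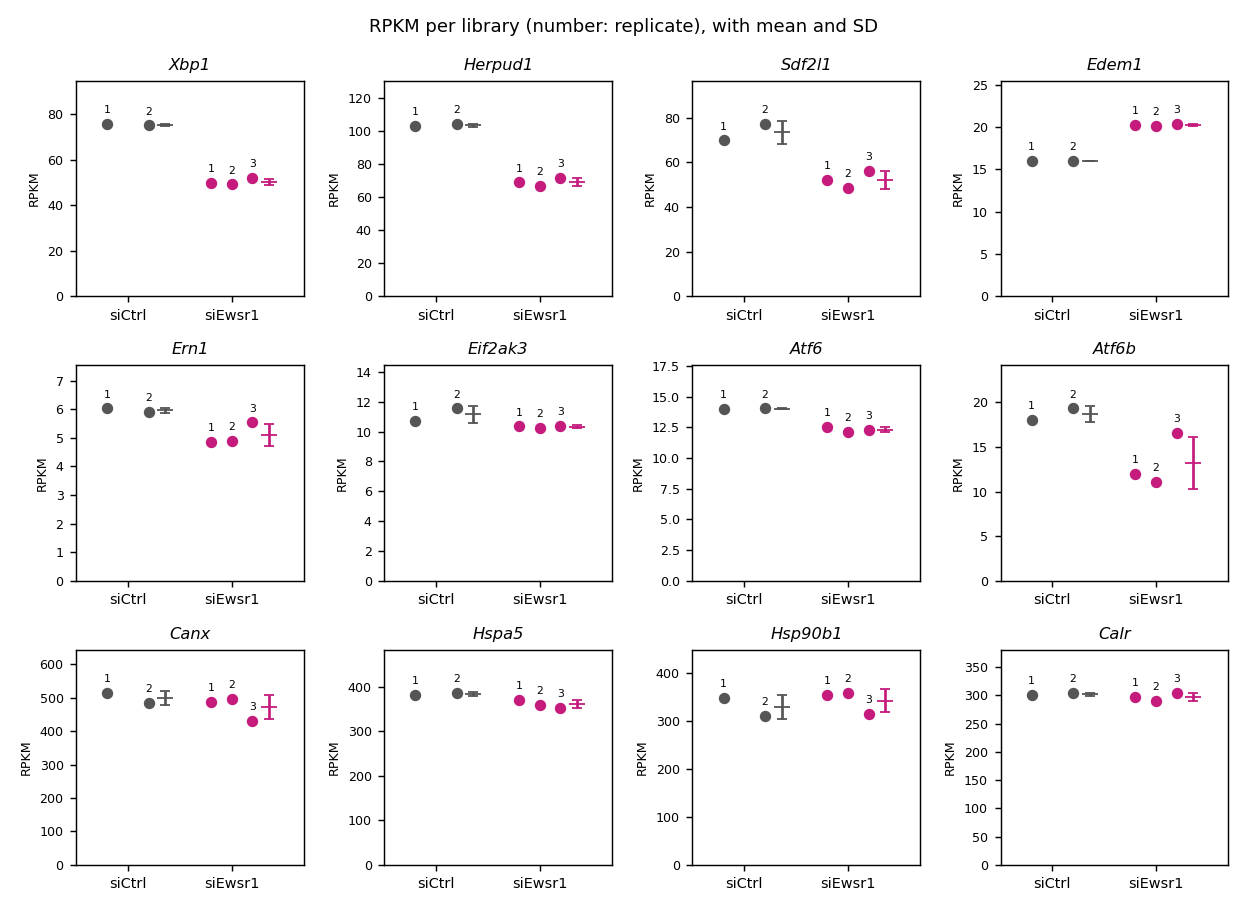
RPKM in each library (points, numbered by replicate) with the mean and SD at the right of each group, for the 4 called genes (top row), the 4 sensors (middle row) and the 4 most abundant chaperones (bottom row); each vertical axis starts at 0. In the top row the groups are apart by more than their spread, with Xbp1 at 75.0 to 75.7 against 49.1 to 51.9, and in Atf6b the third siEwsr1 library (16.6) lies apart from the others.

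Canx, Hspa5 and Hsp90b1 had the highest levels of the 36 genes. Calnexin, the product of Canx (chromosome 11, 50293961 to 50325673), is a membrane lectin that holds glycoproteins during folding. Canx stood at 515 and 485 RPKM in siCtrl and at 488, 495 and 430.5 RPKM in siEwsr1, a log2 fold change of -0.07 (SE 0.10; limma adjusted p = 0.708). Its groups overlapped, with siEwsr1 replicate 3 the lowest library. Hspa5 (chromosome 2, 34771970 to 34777547) encodes BiP, the main ER chaperone and a repressor of the sensors. It stood at 382 and 387 RPKM in siCtrl and at 371, 359.9 and 353 RPKM in siEwsr1, a log2 fold change of -0.07 (SE 0.08; limma adjusted p = 0.629). Every siEwsr1 library lay slightly below both controls, and the 95% interval of the log2 difference ran from -0.25 to 0.10. Hsp90b1 (chromosome 10, 86690209 to 86705509) encodes GRP94, the ER form of HSP90. It stood at 348 and 311 RPKM in siCtrl and at 355, 359 and 314 RPKM in siEwsr1, a log2 fold change of 0.07 (SE 0.10; limma adjusted p = 0.718). The controls differed from each other as much as the siEwsr1 libraries did, and the groups overlapped. Calr, the gene of the soluble lectin calreticulin, followed at 290.3 to 305 RPKM over all 5 libraries.

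Sdf2l1 (chromosome 16, 17130138 to 17132383), part of the BiP cofactor complexes, was the chaperone gene that passed the test. It stood at 69.8 and 77.1 RPKM in siCtrl and at 52.1, 48.3 and 56.3 RPKM in siEwsr1. The groups were apart, although the libraries within each group differed more than those of Xbp1. The mean went from 73.4 ± 5.17 (SD, n = 2) to 52.2 ± 3.98 (SD, n = 3) RPKM, a log2 fold change of -0.48 (SE 0.10; limma adjusted p = 0.0243).

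Of the other chaperone and cofactor genes, none passed the test. Creld2, an ER protein gene known to be induced by stress, had a log2 fold change of -0.34 (75.7 to 83.3 RPKM in siCtrl, 59.1 to 66.7 RPKM in siEwsr1; adjusted p = 0.0646, limma). Hyou1, the gene of the BiP exchange factor GRP170, had a log2 fold change of -0.26, and Dnajb11, a BiP co-chaperone gene, one of -0.24. In all 3 the groups did not overlap. The interval for Dnajb11 ran from -0.42 to -0.06, and its 5 libraries fell into narrow ranges of 71.8 to 72.0 and 59.1 to 60.5 RPKM. Manf, which encodes a secreted stress-induced factor, had a log2 fold change of 0.16 with groups that did not overlap. For the co-chaperone genes the values were 0.28 for Dnajb9, 0.07 for Dnajc10, a reductase, and 0.06 for Dnajc3, with groups that overlapped. Dnajb9, whose product represses IRE1, stood at 19.4 to 23.2 RPKM in siCtrl and at 23.0 to 27.1 RPKM in siEwsr1, with replicate 3 again the lowest of the siEwsr1 libraries.

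No gene of oxidative folding was called, and 4 of the 6 values were positive. Ero1l (-0.39), the gene of the ERO1-alpha oxidase that recharges disulphide isomerases, and P4hb (-0.21), the gene of the isomerase PDI, had groups that did not overlap, with siEwsr1 lower. Ero1l stood at 25.6 to 26.8 RPKM in siCtrl and at 18.2 to 22.1 RPKM in siEwsr1 (adjusted p = 0.0626, limma). Pdia3, which encodes the isomerase ERp57 that works with calnexin and calreticulin, had the opposite sign. It stood at 131 to 138 RPKM in siCtrl and at 141 to 162 RPKM in siEwsr1, a log2 fold change of 0.21 (95% interval -0.01 to 0.43). The isomerase genes Pdia6 (0.07) and Pdia4 (0.01) and the second oxidase gene Ero1lb (0.31) had overlapping groups. Ero1lb was low, at 1.04 to 1.69 RPKM over all libraries with at most 219 reads, and its interval was wide (-0.10 to 0.71).

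ERAD held a called gene in each direction. Herpud1 (chromosome 8, 94386438 to 94395377) encodes a short-lived membrane protein that helps assemble the HRD1 ubiquitin ligase complex. It stood at 103 and 104 RPKM in siCtrl and at 68.7, 66.8 and 71.4 RPKM in siEwsr1. As for Xbp1, the libraries of each group lay close together and the groups were far apart. The mean went from 103 ± 0.910 (SD, n = 2) to 69.0 ± 2.34 (SD, n = 3) RPKM, a log2 fold change of -0.57 (SE 0.08; limma adjusted p = 0.0054).

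Edem1 (chromosome 6, 108828641 to 108859356) stood at 16.0 RPKM in both siCtrl libraries and at 20.2, 20.2 and 20.4 RPKM in siEwsr1. The spread within each group was far smaller than the gap. The mean went from 16.0 ± 0.0175 (SD, n = 2) to 20.2 ± 0.103 (SD, n = 3) RPKM, a log2 fold change of 0.35 (SE 0.08; limma adjusted p = 0.0388). The products of its paralogs Edem2 and Edem3 trim mannose from glycoproteins in the same pathway. Edem2 stood at 6.17 and 7.62 RPKM in siCtrl and at 5.26, 4.36 and 5.998 RPKM in siEwsr1, a log2 fold change of -0.39 (SE 0.15; limma adjusted p = 0.174). Its groups did not overlap, but the controls differed from each other by almost as much as from siEwsr1. Edem3 (-0.03) stood at 21.4 to 25.8 RPKM over all libraries and its groups overlapped.

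The remaining ERAD genes did not pass the test. Sel1l, the scaffold of the HRD1 complex, had a log2 fold change of -0.28 and Derl1, a channel subunit, one of -0.27, in both cases with groups that did not overlap. Sel1l stood at 12.03 to 12.9 RPKM in siCtrl and 9.70 to 10.4 RPKM in siEwsr1 (adjusted p = 0.102, limma). Derl1 stood at 51.1 to 52.5 RPKM in siCtrl and 41.5 to 43.6 RPKM in siEwsr1 (adjusted p = 0.0920, limma). Selenos (-0.20), which encodes a selenoprotein that recruits the ATPase VCP, and Os9 (-0.20), a lectin gene, also had groups apart, with siEwsr1 replicate 3 the nearest to the controls in both. Derl2, a second Derlin gene, had a value of 0.10, and Syvn1, which encodes the ligase HRD1 itself, one of -0.25, both with overlapping groups. Syvn1 was low here, at 114 to 181 reads, and its exonic length of 4772 bases was solved from the values because the annotated length gave no whole reads. Derl3 had 3 reads in each siCtrl library and 0, 0 and 1 in siEwsr1, so it was not tested and no fold is given. The translocon subunit gene Sec61a1 had a log2 fold change of -0.25 with groups that did not overlap, and Sec61b one of 0.00 with groups that overlapped.

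**Figure D3:**
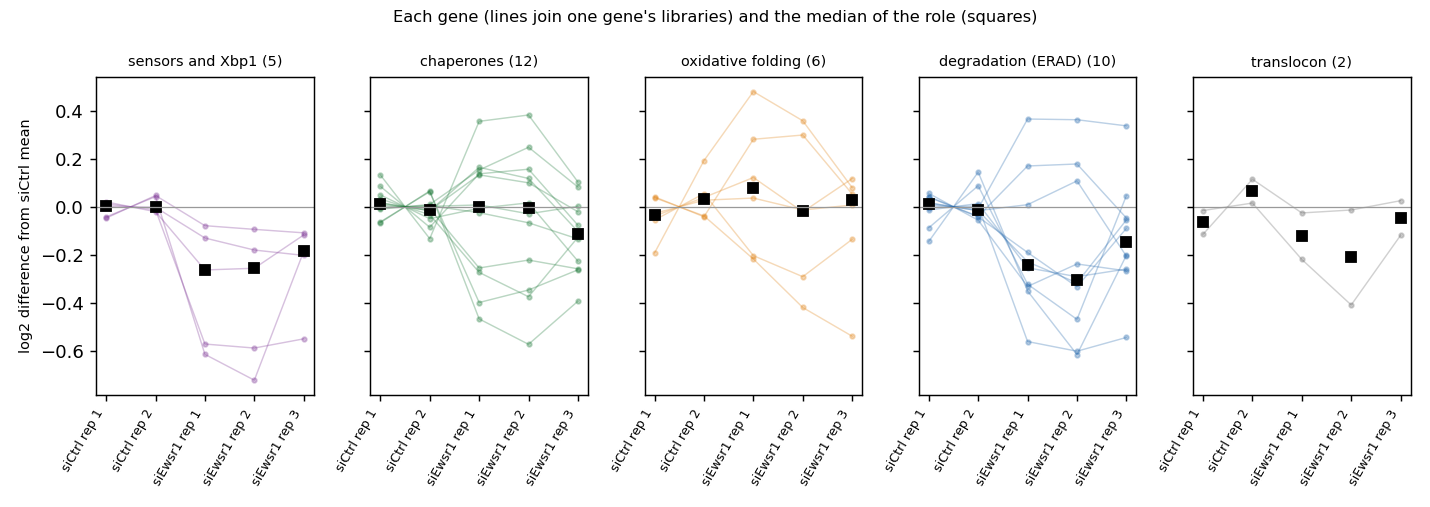
Log2 difference of each library from the siCtrl mean (vertical axis) for every tested gene, with thin lines joining the libraries of 1 gene and black squares at the median of the role; the order of libraries has no meaning. The squares of sensors and ERAD lie below 0 in all 3 siEwsr1 libraries (-0.26, -0.26 and -0.19, and -0.24, -0.30 and -0.15). Those of the 2 translocon genes do too (-0.12, -0.21 and -0.05), while those of chaperones and oxidative folding stay between -0.11 and 0.08.

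Read library by library, the pattern was not uniform. Against the siCtrl mean, the median over all 35 genes was -0.13, -0.18 and -0.12 in siEwsr1 replicates 1, 2 and 3. The median of the sensors and Xbp1 was -0.26, -0.26 and -0.19, and that of ERAD was -0.24, -0.30 and -0.15. Chaperones had medians of 0.00, -0.01 and -0.11, and oxidative folding had 0.08, -0.02 and 0.03. The 2 translocon genes had medians of -0.12, -0.21 and -0.05. The number of genes below both controls was 22, 23 and 24, and the number above both controls was 10, 10 and 5, so siEwsr1 replicate 3 had fewer high values. Over all tested genes 44.1%, 46.1% and 38.3% were below both controls and 36.4%, 37.6% and 39.9% above. Together the 36 genes held 1.16% and 1.15% of counted reads in siCtrl and 1.10%, 1.08% and 1.06% in siEwsr1, with Canx and the other abundant chaperone genes as the main part.

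The 4 calls rested on few libraries. With siCtrl replicate 1 or siCtrl replicate 2 left out, 1 control remained, which the fit assumes to vary as the siEwsr1 libraries do. No member was then called. Without siEwsr1 replicate 1, Xbp1 and Herpud1 were each at an adjusted p of 0.0532 by limma, Sdf2l1 at 0.136 and Edem1 at 0.158. Without siEwsr1 replicate 2, Xbp1 (0.0106) and Herpud1 (0.0112) were called by limma and Sdf2l1 (adjusted p = 0.0557) and Edem1 (adjusted p = 0.059) were not. Without siEwsr1 replicate 3, 16 of the 35 members were called lower and 4 higher, against 1865 and 1910 of 14593 tested genes. Fold changes of the 4 genes moved little over all alternatives: -0.58 to -0.54 for Xbp1, -0.58 to -0.54 for Herpud1, -0.53 to -0.40 for Sdf2l1 and 0.34 to 0.37 for Edem1. A choice made after seeing the data also mattered: with the variance trend taken on mean RPKM in place of mean reads, Sdf2l1 (adjusted p = 0.0623, limma) and Edem1 (0.0785) were not called. With no read filter these genes were not called either (0.0887 and 0.0797, limma), a pseudocount of 1 ended the call of Edem1 (0.0541), and ordinary moderation ended all 4 (0.0852 to 0.149).

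**Figure D4:**
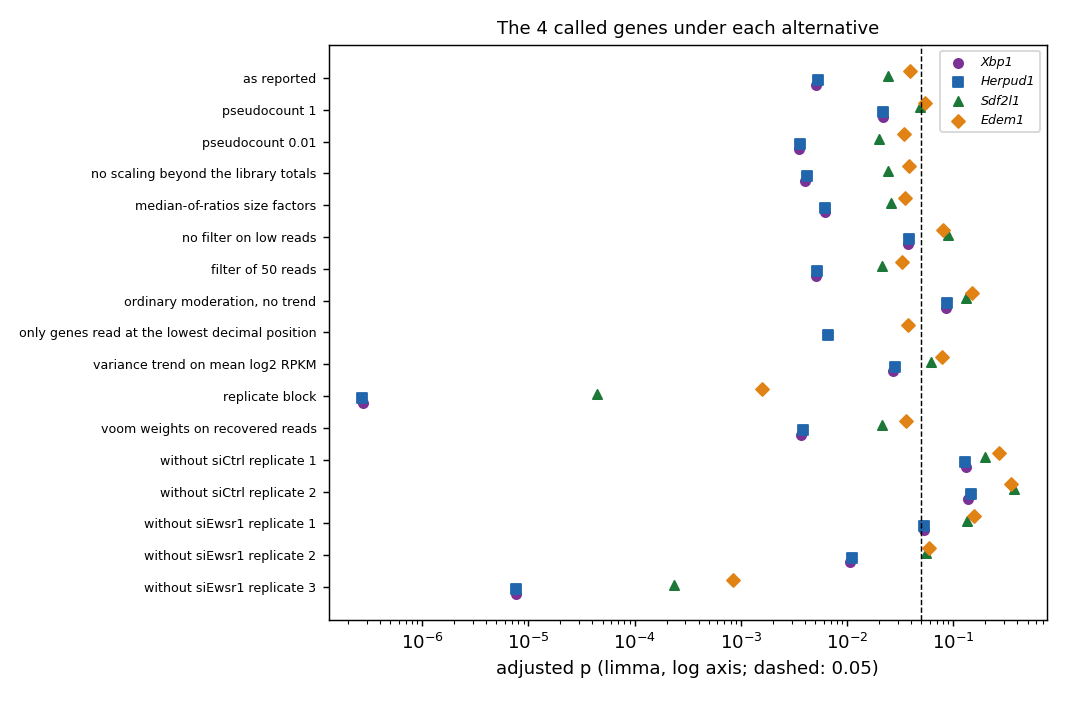
Adjusted p from limma (log axis) of the 4 called genes as reported and under each alternative processing or left-out library; the dashed line marks 0.05. Xbp1 and Herpud1 stay left of the line in most settings and cross it without either siCtrl library, without siEwsr1 replicate 1 and under ordinary moderation; points are missing for Xbp1 and Sdf2l1 where a setting leaves them out.

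Beyond the 36 genes, the wider pathway was read from lists written by role with earlier results of these data known. Of 16 tested genes of UPR signalling (18 listed), 4 were called lower and 0 higher, with a median log2 fold change of -0.25, and 7 were lower and 0 higher at an unadjusted p under 0.05 (limma). Here and for the lists that follow, the shares over all tested genes were 2.82% called lower and 2.44% higher, and 11.4% and 10.7% at an unadjusted p under 0.05. The 4 were the integrated stress response genes Atf4, the factor translated when eIF2-alpha is phosphorylated, Ddit3, which encodes CHOP, Ppp1r15a, which encodes the eIF2-alpha phosphatase subunit GADD34, and Trib3, a pseudokinase gene. Atf4 stood at 436 and 440.0 RPKM in siCtrl and at 307, 276 and 324 RPKM in siEwsr1 (log2 fold change -0.52, adjusted p = 0.0102, limma). The log2 fold changes of the others were -1.51 for Trib3, -0.87 for Ddit3 and -0.53 for Ppp1r15a, with siEwsr1 replicate 3 nearest to the controls in each. Creb3l1 and Creb3l4 had too few reads to test.

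Of 32 tested genes of the wider folding list, 2 were called lower and 0 higher, with a median of 0.00, and 4 were lower and 3 higher at an unadjusted p under 0.05 (limma). Serpinh1, the collagen chaperone gene HSP47, stood at 3.17 and 3.78 RPKM in siCtrl and at 0.871, 1.13 and 1.05 RPKM in siEwsr1 (log2 fold change -1.66, adjusted p = 0.00304, limma). Fkbp9, an ER prolyl isomerase gene, was the other (-0.44, adjusted p = 0.0248, limma). The 35 genes of the wider ERAD list had 2 called lower and 1 higher, with a median of 0.00 and 8 lower and 7 higher at an unadjusted p under 0.05 (limma). Erlin1 and Erlin2 encode the partner subunits of one ER membrane complex that takes part in ERAD, and they had opposite signs. Erlin2 stood at 21.6 and 22.1 RPKM in siCtrl and at 15.2, 15.0015 and 15.6 RPKM in siEwsr1 (log2 fold change -0.50, adjusted p = 0.0102, limma). Erlin1 stood at 8.87 and 9.09 RPKM in siCtrl and at 12.1, 12.4 and 12.2 RPKM in siEwsr1 (log2 fold change 0.45, adjusted p = 0.0226, limma). In both genes the groups were far apart relative to their spread. Rhbdd1, an ER rhomboid protease gene, was the other gene called lower (-0.54). Of 33 genes of translocation and glycosylation, Srp72, a subunit gene of the signal recognition particle, was called higher (0.38) and 0 were called lower, with a median of 0.00 and 6 lower and 4 higher at an unadjusted p under 0.05 (limma). Without siCtrl replicate 1 or siCtrl replicate 2, none of these 10 genes was called (limma adjusted p up to 0.387). Without siEwsr1 replicate 1 only Trib3 and Serpinh1 were, and without siEwsr1 replicate 2 Ppp1r15a (adjusted p = 0.0753, limma), Fkbp9 (0.0514) and Srp72 (0.054) were not. With no read filter, and likewise with the variance trend on mean RPKM, Trib3, Serpinh1 and Erlin2 were called and the other 7 were not (limma adjusted p of 0.0525 to 0.118 and 0.0524 to 0.0834). A pseudocount of 1 ended the calls of Ddit3 (adjusted p = 0.0508, limma), Ppp1r15a (0.0713) and Srp72 (0.0613), and ordinary moderation ended all 10 (0.0713 to 0.155).

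Other features of the libraries moved with the groups. Of 18 neuroblastoma markers, 16 were tested, and 5 were called higher, Isl1, Mycn, Chgb and Ina among them, and 0 lower. Tubb3, Gata3 and Chga had log2 fold changes of -0.26, -0.21 and -0.13 and were not called. The list had a summed level of 1157 to 1175 RPKM in siCtrl and 1258 to 1383 RPKM in siEwsr1. The 8 fibroblast markers summed to 3.23 to 3.44 RPKM in siCtrl and 1.16 to 1.37 RPKM in siEwsr1. Acta2, called lower and read with a solved length, made up most of that sum. It stood at 2.88 and 2.63 RPKM in siCtrl and at 0.784, 0.921 and 0.867 RPKM in siEwsr1. Pdgfrb (log2 fold change -1.20) and Pdgfra (0.20) had opposite signs and were not called. Col1a1, Col1a2 and Dcn had too few reads to test, and the defining genes Col3a1 and Lum were listed at 0 in every library. Glial markers summed to 1.02 to 1.199 and 1.26 to 1.42 RPKM, with Olig1 at 0, and immune markers to 0.701 to 0.773 and 0.603 to 1.0015 RPKM, with Csf1r and Cd3e at 0. The part of these shifts in the ER gene values was not tested. Exons of Dnajb9, Derl2, Hsp90b1, Pdia6, Syvn1, Pdia4, Pdia3, Sec61a1, Eif2ak3 and Manf overlap exons of other annotated genes, and the strand setting of the counting is not given in the sources used here, so their values may hold reads of the neighbour. Xbp1, Herpud1, Sdf2l1 and Edem1 have no such overlap in GENCODE M21.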

How the data were processed

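Total RNA libraries of N2a cells (2 siCtrl, 3 siEwsr1, grouped by their titles) were prepared with stranded chemistry and ribosomal RNA depletion, per the labels' protocols. Per the submitters' processing notes, the authors used the genome build GRCm38 with edgeR, whose version is not named, featureCounts 1.5.1 and STAR 2.5.2b. Annotation release, strand setting and the handling of multi-mapping reads were not given in the sources used here. No file header names the unit, which was recorded as other: the values the authors deposited behave as RPKM whose decimal point was lost at 1 and above.

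The decimal point was restored so that RPKM times exonic length (GENCODE M21, which holds 54809 of the 54838 identifiers) times the library total gave whole reads within 1e-06, jointly over the libraries and without group labels. Of intact values, 98.5% to 98.64% came out whole. Of 27255 genes above 0, 26640 were read with the annotated length and 577 with a length solved from the values, 38 gave no whole reading, and 65 were dropped for odds under 20. An error would shift a gene's level, and if libraries were read differently its fold change, by a factor of 10 or more. Counted reads were 15766280 and 17314511 in siCtrl and 15045774, 21339459 and 17475740 in siEwsr1.

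limma 3.58.1 (R 4.3.3) was fitted to log2(RPKM + 0.1) with group as the only term, after trimmed-mean scaling (30% of ratios, 5% of levels), for genes that reached 10 reads, scaled to the median library total, in 2 or more libraries, with a variance trend on mean log2 reads and robust moderation. P-values are two-sided, with Benjamini-Hochberg adjustment over all tested genes. Fold changes on this scale understate changes of low genes. Trend variable and a voom fit were chosen after seeing the data. Restoration was tried on simulated reads of genes with an annotated length, and the fit on simulated reads with a fixed dispersion. These simulations did not cover solved lengths or an outlying library, and their outcomes are not given here. The members and lists were chosen with earlier results of these data known. Full values were given for called members, sensors and the 3 members with the highest mean RPKM, for the other members ranges or fold changes, and for each wider list at most the 4 largest called changes per direction; values of a few other members were added after they had been seen. Alternatives covered the pseudocount, scaling, the read filter, moderation, the decimal reading, the replicate number as a block and each library left out. A marker gene's result is not reported here.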

Additional observations from a re-analysis of the deposited data

How the results depend on the processing

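Counts are given as members lower and higher, then all genes lower and higher, beside 3 and 1, and 421 and 365. The members' counts were 3 and 0 (genes 216 and 172) with a pseudocount of 1, 2 and 0 (114 and 70) with no read filter, 2 and 0 (146 and 116) with the variance trend on mean log2 RPKM, 1 and 1 (327 and 292) with only genes read at the lowest decimal position (23 members, median log2 fold change -0.020), and 0 and 0 (0 and 0) under ordinary moderation, where 9 members were lower and 1 higher at an unadjusted p under 0.05 (1507 and 1282 genes) and Ewsr1 was at -0.96 (adjusted p = 0.0713, limma). Without any 1 library the members' counts ranged from 0 to 16 lower and 0 to 4 higher, the genes' from 4 to 1865 lower and 12 to 1910 higher, and the median of members from -0.17 to -0.12. A pseudocount of 0.01, no scaling, which added Ero1l, median-of-ratios scaling, a filter of 50 reads and voom kept all 4 calls. Groups shared replicate numbers 1 and 2 only, and the deviations of same-numbered libraries correlated at 0.02 and -0.12 across genes. The numbers are thus not shown to pair the libraries. With the replicate block 14 members were lower and 3 higher (1678 and 1639 genes). In that fit siEwsr1 replicate 3, which has no siCtrl library of its number, did not enter the group difference.

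Values that changed sign, none called (adjusted p 0.545 or more where reversed, limma), were Pdia4 (-0.0048 without scaling), Calr and Sec61b (0.0065 and 0.0084 with median-of-ratios scaling, 0.0036 and 0.0054 at the lowest decimal position), and Canx and Edem3 (0.0052 and 0.058 with the replicate block). With 1 library left out, values spanned 0 in Hsp90b1 (-0.0015 to 0.17), Calr (-0.0077 to 0.021), Canx (-0.11 to 0.0082), Pdia4 (-0.0047 to 0.049), Edem3 (-0.082 to 0.061) and Sec61b (-0.11 to 0.12). The cause was not tested.

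The planned edgeR and DESeq2 fits were not run, since the deposited values are not counts. With 2 controls each call leans on both. At 15045774 or more counted reads, the 4 called members held 868 reads or more in every library. Their SEs rest on variances that limma moderates across genes, not only on each gene's own spread between libraries. What limits their precision was not tested. Ero1lb, Syvn1 and Derl3 held far fewer reads (at most 219, 181 and 3 in any library), and the part of depth in their precision was not tested either.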
